A study of Mus musculus with 3 samples.

Results

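Retinoic acid, the form of vitamin A that acts on genes, was added to mouse kidney explants grown without serum, and gene expression with it was set against gene expression without it. The explants were kidneys of C57BL/6 embryos, taken at embryonic day 11.5 and kept for 48 h on porous Transwell filters. The comparison uses 2 of the 3 arrays of the series: an array of explants in serum-free DMEM (serum-free) and an array of explants in the same medium with retinoic acid (retinoic acid). The remaining array, of explants in DMEM with 10% fetal bovine serum (serum), is given beside them as a further level. No genetic change is named for any of the 3 groups, and neither the dose of retinoic acid nor the number or sex of the embryos behind an array is given in the sources used here. All 19938 genes of the array were compared, of which 10111 reached a level floor on at least 1 of the 2 arrays. The floor is 7.12 on the log2 scale, an intensity of 140, and is the median of all gene-level values.

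With 1 array per medium there is no replicate check, no error and no test, and every difference describes these arrays only. A difference is log2 of the retinoic acid value minus log2 of the serum-free value, so that 1 stands for 2-fold, and levels are log2 intensities that can be compared between arrays but not between genes. Counts of higher and lower genes take a difference of at least 2-fold whose larger value reached the floor. A difference that starts or ends under the floor has an uncertain size. A gene under the floor on 1 of the 2 arrays counts as at the floor through its higher value alone, so it had to differ. Median intensities over all probe sets were 81.5 on the serum, 85.5 on the serum-free and 84.7 on the retinoic acid array. Kidney identity genes were present: the 13 measured members of that list, among them Pax2, Wt1, Six2 and Ret, all reached the floor. In a whole explant, fewer cells of a type and less RNA per cell cannot be told apart.

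Retinoic acid is made in the embryo from retinol, by way of retinaldehyde, and is broken down by enzymes of the CYP26 family. It acts through nuclear receptors, the RARs, which bind DNA together with RXRs at direct repeats of a short motif and switch genes on when the ligand is bound. In the developing kidney it is made largely by stromal cells, and its signal is known to maintain expression of the receptor gene Ret in the ureteric bud, the epithelium that branches to form the collecting ducts. The bud induces the surrounding cap mesenchyme, which holds the progenitors of the nephrons.

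The DNA next to the transcription start was searched for the repeat that RARs are known to bind, because its best known carriers belong to the genes discussed here. The motif RGKTCA was sought as a direct repeat spaced by 5 bases (DR5), on both strands of the 250 bases before the start, in RefSeq promoters of assembly GRCm38.p6. The search covered 19177 starts of 15614 array genes, and a gene counts once if any of its starts held a DR5. Carriers were 11 of the 15614 genes (0.0705%) and 6 of the 8187 that reached the floor (0.0733%). Of 80 genes at least 2-fold higher with retinoic acid, 2 held it (2.5%), and of 47 genes at least 2-fold lower, 0 held it. The 2 were Tnfsf13b and Rarb. Among the 11 carriers the next largest difference was that of Cyp26a1, shown although it stayed under the floor. Capitals mark both copies of the motif, each sequence runs 5′ to 3′ on the strand of its gene, and in Cyp26a1 the repeat lies on the opposite strand.
Tnfsf13b, chr8:10006217-10006301, plus strand: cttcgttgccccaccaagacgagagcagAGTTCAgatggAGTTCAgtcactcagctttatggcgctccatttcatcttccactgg
Rarb, chr14:16575477-16575569, minus strand: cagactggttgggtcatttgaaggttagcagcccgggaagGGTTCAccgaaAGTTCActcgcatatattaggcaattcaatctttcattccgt
Cyp26a1, chr19:37697736-37697807, plus strand: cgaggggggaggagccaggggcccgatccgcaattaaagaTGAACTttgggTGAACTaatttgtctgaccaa
The repeat begins 222 bases before the start of Tnfsf13b, 53 before that of Rarb and 32 before that of Cyp26a1. Differences of the other 8 carriers lay between -0.16, in Blvrb, and 0.48, in Syndig1. The same motif spaced by 2 bases occurred in 7 of the 8187 genes and spaced by 1 base in 15, with 0 among genes counted in either direction. A match is a stretch of letters and not a measured binding site, and promoters beyond 250 bases and introns were not searched.

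Counted by size, 106 genes were at least 2-fold higher with retinoic acid, or 1.05% of the 10111 genes at or above the floor, and 62 were at least 2-fold lower, or 0.613%. At 1.5-fold the counts were 244 (2.41%) and 196 (1.94%). The increases were also larger: 20 genes passed 4-fold and 5 passed 8-fold, against 2 and 0 among the decreases. Most genes differed little, with 94.4% within 0.5 of 0 and a median difference of 0, and 35.4% had exactly equal values on both arrays. By sign, 2984 of the 10111 were above 0, 3549 below 0 and 3578 equal. These counts and shares over all genes are the measure for each list below. In 44 of the 106 the serum-free value lay under the floor, and in 28 of the 62 the retinoic acid value did. Genes of low mean level supplied more of the counts: in 4 groups of nearly equal size by level, the share at least 2-fold higher went from 1.899% in the lowest to 0.593% in the highest. A further probe set at or above the floor existed for 3 of the 168 genes, and all 3 had the same sign: it gave 1.15 beside 1.42 for Wnt4, 1.93 beside 1.55 for Mpp6 and -0.76 beside -1.06 for Pdlim1. The threshold cut through a continuous range, since 14 genes lay between 2 and 2.1-fold higher and 13 between 1.9 and 2-fold, with Brinp1 (1.00167) the nearest inside and Nfia (0.995748) the nearest outside. For decreases these counts were 15 and 13, with Adcy4 (-1.01) the nearest inside and Sytl4 (-0.997781) the nearest outside.

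**Figure D1:**
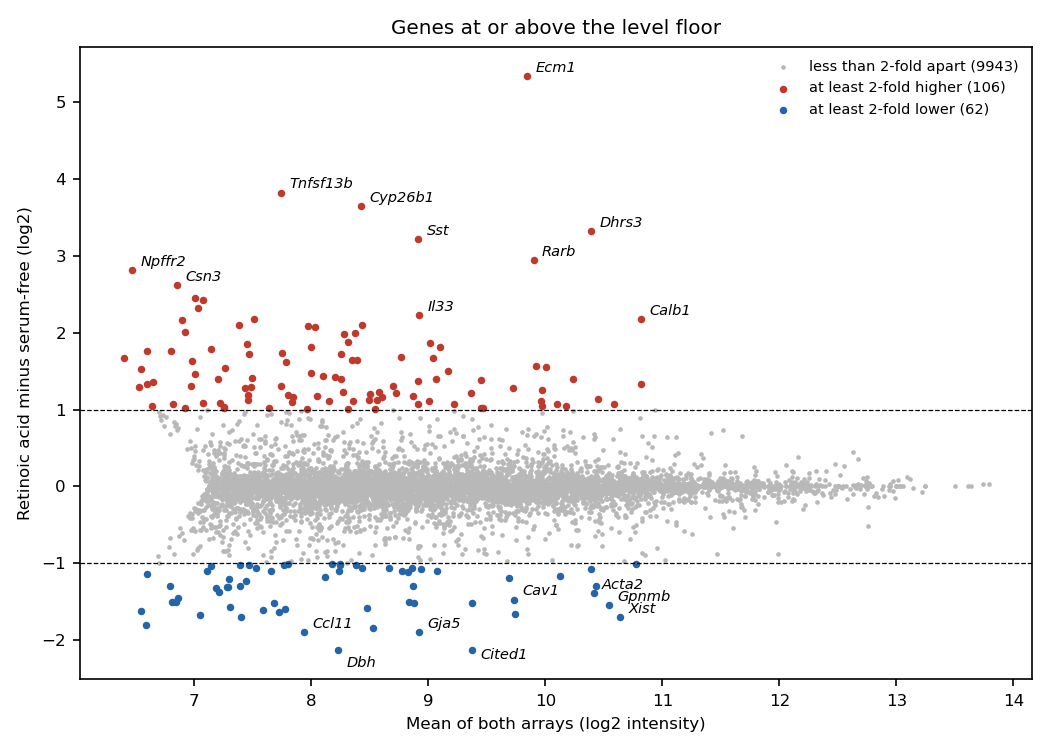
Difference of each gene, retinoic acid minus serum-free on the log2 scale, against its mean log2 level on both arrays; each point is 1 gene at or above the floor, and coloured points are the 106 genes at least 2-fold higher and the 62 at least 2-fold lower. Ecm1 stands apart at 5.34, and the lowest points, Cited1 and Dbh, lie at -2.13.

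The enzymes that remove retinoic acid or its precursor were among the largest increases. Cyp26b1, a hydroxylase that breaks retinoic acid down, was at 6.63 in serum, 6.60 without serum and 10.25 with retinoic acid, a difference of 3.65 from a value under the floor. Its level stood out on the retinoic acid array alone, and its relatives did not reach the floor there: Cyp26a1 was at 4.995, 4.42 and 5.57, and Cyp26c1 at 5.69 on each array. Dhrs3, a reductase that returns retinaldehyde to retinol, was at 10.83 in serum, 8.73 without serum and 12.05 with retinoic acid. Its serum value lay between the other 2.

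Enzymes of retinoic acid synthesis differed in both directions. Aldh1a2, the main retinaldehyde dehydrogenase of the embryo, was at 11.37 in serum, 11.50 without serum and 10.54 with retinoic acid, a difference of -0.95. Rdh10, which makes the retinaldehyde, was at 11.07, 11.30 and 10.41, or -0.89. Both were lower by just under the 2-fold limit. Adh1, an alcohol dehydrogenase that can oxidise retinol, was higher by 1.89 (8.01 in serum, 7.38 without serum, 9.26 with retinoic acid), and Aldh1a1, another retinaldehyde dehydrogenase, by 0.96 (8.41, 7.33 and 8.29). Aldh1a3 differed by -0.13. Of 21 measured synthesis and storage enzymes, 11 reached the floor. At least 2-fold higher were 2 (Dhrs3 and Adh1) and lower 0, beside 1.05% and 0.613% of all genes at the floor. Adh5 differed by 0.24, Rdh14 by 0.10 and Rdh11, Rdh13 and Dgat1 by 0.00. The storage enzyme Lrat stayed under the floor at 5.36 or less on every array. Also under the floor on the compared arrays were Rdh1, Rdh5, Rdh12, Dhrs9, Aldh1a7, Adh7, Bco1, Bco2 and Rpe65, which all differed by 0.27 or less.

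Genes of retinoid transport and binding also split. Stra6, the membrane receptor that takes up retinol from its carrier protein, was at 9.94 in serum, 9.14 without serum and 10.70 with retinoic acid, or higher by 1.56. The cytosolic binding proteins were lower: Crabp1 at -0.88 (11.82, 12.43 and 11.55), Fabp5 at -0.77 (9.76, 10.66 and 9.89) and Crabp2 at -0.49 (9.45, 9.39 and 8.91). Only Stra6 and Cd36, a fatty acid transporter at 9.20, 11.08 and 9.79, passed the 2-fold limit, of 5 members at the floor and 10 measured. Of all genes at the floor, 1.05% were higher and 0.613% lower. Cd36 is also made by macrophages, whose markers are given further on. Rbp2, Rbp4, Rbp7, Ttr and Lrp2, carriers of retinol and a receptor that takes them up, were under the floor and equal on the compared arrays.

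Among receptors and cofactors, Rarb alone passed the limit, 1 of 16 at the floor, beside 1.05% of all genes. It was at 10.41 in serum, 8.43 without serum and 11.37 with retinoic acid, a difference of 2.95. Rarg followed with 0.87 (8.36, 7.98 and 8.85), and Rara, at 9.20, 9.28 and 9.20, with -0.08. The partner receptors Rxra and Rxrb differed by -0.07 and 0.03. Ncoa3, a coactivator of nuclear receptors, was higher by 0.74, and Nrip1, a corepressor that is itself a retinoic acid target in other cells, by 0.40. The orphan receptor genes Nr2f1 and Nr2f2 differed by 0.33 and 0.00, Nr2f6 by -0.19 and Ncoa1 by 0.26, and Ncoa2, Ppard, Nr2c1, Nr2c2 and Nr6a1 lay between 0.00 and 0.08. Under the floor, Rorb differed by 0.78, Rxrg by -0.27 and Rora by 0.00.

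A list of genes known to respond to retinoic acid in other embryonic tissues had 27 measured members, 18 at the floor, of which 6 were at least 2-fold higher and 0 lower. Their median over the measured members was 0.20, beside 0 over all genes. Besides Cyp26b1, Dhrs3, Rarb and Stra6, the 6 held Tgm2, a transglutaminase that crosslinks proteins, at 8.36 in serum, 7.93 without serum and 9.06 with retinoic acid, and Hoxa4. Members of the same list that differed downward were Egr1 at -0.56 and Spry2 at -0.55. Zfp703 differed by 0.40, Meis2 by 0.39, Meis1 by 0.19 and Isl1 by -0.18. Foxa1 and Tbx5, under the floor, differed by 0.20 and 0.00. Stra8, Cdx1 and Gbx2, which respond in germ cells or at the embryonic axis, were under the floor and equal on both arrays.

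**Figure D2:**
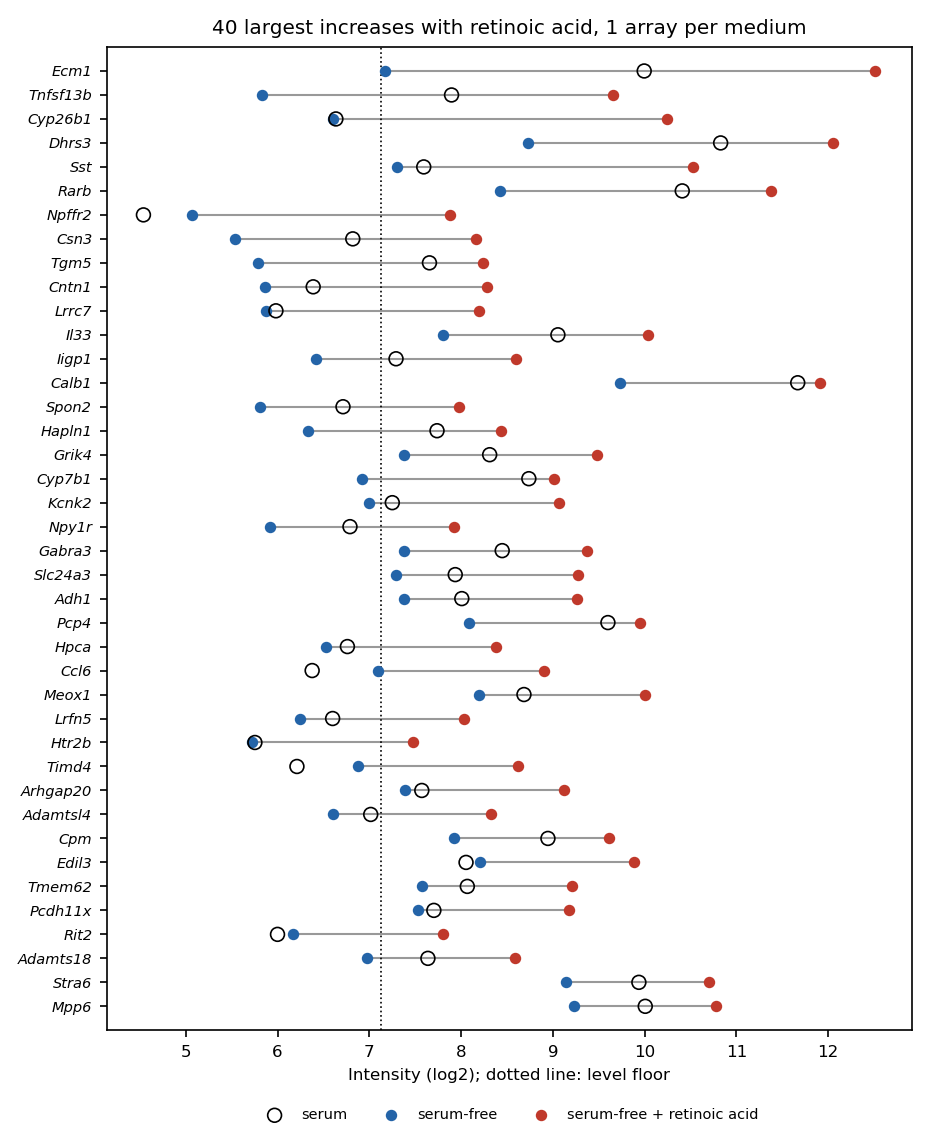
Log2 levels of the genes with the largest increases on the serum (open ring), serum-free and retinoic acid arrays, 1 row a gene and 1 point an array, with the level floor of 7.12 drawn as a line. The serum-free point of Cyp26b1, at 6.60, lies under the floor, and the retinoic acid point of Ecm1, at 12.52, is the farthest to the right.

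HOX genes lie in 4 clusters in the order in which they act along the body axis, and those at the 3-prime end are known to answer to retinoic acid first. Of 14 measured genes of paralog groups 1 to 5, 12 reached the floor. Upward, 2 of the 12 passed the 2-fold limit, beside 1.05% of all genes at the floor. Hoxc4 was at 7.44 in serum, 6.86 without serum and 8.05 with retinoic acid, or 1.19, and Hoxa4 at 7.39, 7.13 and 8.15, or 1.02. Among the compared arrays, Hoxc4 reached the floor with retinoic acid alone, so it had to differ to be counted. The median over the 14 was 0.43, against 0.01 over the 7 of groups 6 to 8 and 0.00 over the 16 of groups 9 to 13.

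The clusters differed in sign. Of the HoxA genes at the floor, 8 of 10 were above 0 and 0 below, with Hoxa2 at 0.80, Hoxa5 at 0.68, Hoxa3 at 0.67 and Hoxa6 at 0.48. Toward the other end of the cluster, Hoxa13 differed by 0.12, Hoxa10 by 0.02, Hoxa7 by 0.01 and Hoxa9 and Hoxa11 by 0.00. All 6 HoxC genes at the floor were above 0, Hoxc4 among them through the retinoic acid array alone. They went from 0.13 in Hoxc10 to 0.87 in Hoxc5 and 1.19 in Hoxc4, with Hoxc8 at 0.64, Hoxc6 at 0.47 and Hoxc9 at 0.32. In HoxB, 4 of 7 were above 0, with Hoxb2 the highest at 0.49, then Hoxb4 at 0.38, Hoxb3 at 0.27 and Hoxb5 at 0.09, while Hoxb6 and Hoxb7 differed by 0.00 and Hoxb9 by -0.11. In HoxD, 7 of 8 were below 0: Hoxd12 differed by -0.68 (8.37, 8.53 and 7.85), Hoxd10 at -0.36, Hoxd8 at -0.30, Hoxd11 at -0.29 and Hoxd9 at -0.24, while Hoxd13 was above 0 at 0.34. Hoxd3 and Hoxd4 differed by -0.14 and -0.10, where Hoxa3 and Hoxa4 of the same paralog groups differed by 0.67 and 1.02. These are small differences between single arrays, and all but those of Hoxc4 and Hoxa4 are under 2-fold. Of the HOX genes under the floor, Hoxb13 was at 4.89, 4.80 and 6.00, a difference of 1.20, Hoxb1 differed by 0.33 and Hoxc11 by 0.22, and Hoxc12, Hoxc13 and Hoxd1 by 0.00. The cofactors of HOX proteins, the TALE genes, ranged from -0.10 in Tgif1 to 0.39 in Meis2 among the 9 at the floor.

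**Figure D3:**
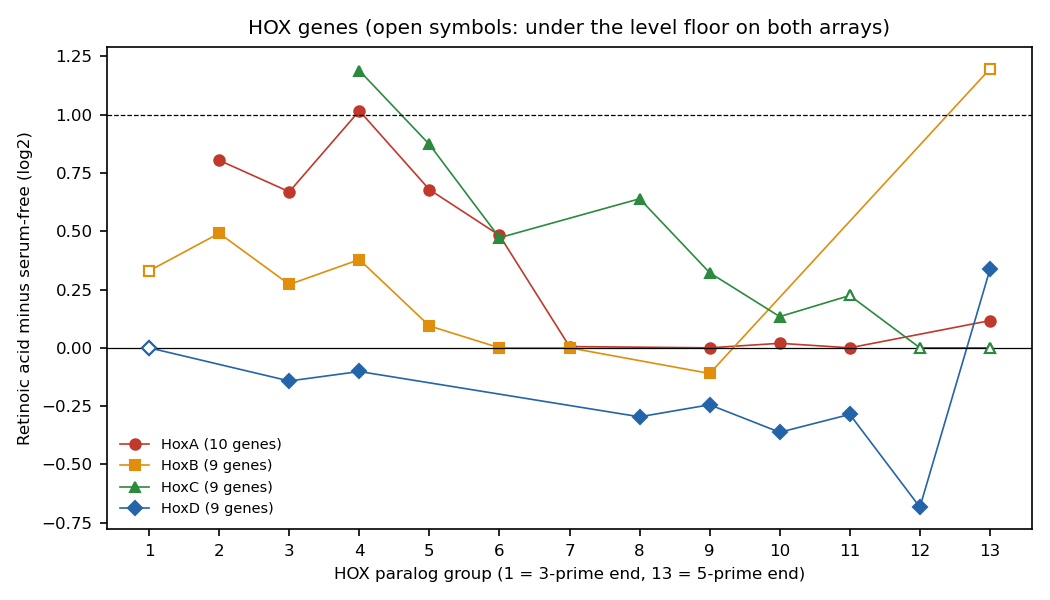
Difference of each measured HOX gene, retinoic acid minus serum-free on the log2 scale, by paralog group, with 1 line a cluster; open symbols are genes under the floor on both arrays. Among genes at the floor, Hoxc4 and Hoxa4 lie highest and all HoxD genes but Hoxd13 lie below 0; the open symbol of Hoxb13, under the floor, lies as high as Hoxc4.

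The largest increase on the arrays belonged to a matrix gene. Ecm1, extracellular matrix protein 1, which is a marker of renal stroma, was at 10.00 in serum, 7.17 without serum and 12.52 with retinoic acid, 40.6-fold over serum-free. Its genomic neighbour Adamtsl4, whose product binds fibrillin, was higher by 1.72 (7.01, 6.61 and 8.33). Hapln1, a link protein that holds hyaluronan to proteoglycans, was higher by 2.11 (7.74, 6.33 and 8.44), and its neighbour Edil3, an integrin ligand, by 1.67 (8.05, 8.21 and 9.88). Spon2, another matrix protein gene, was higher by 2.17 (6.71, 5.81 and 7.98), and the protease gene Adamts18, expressed at ureteric bud tips, by 1.62. Of the collagens, 0 of 19 at the floor passed the limit in either direction. Of 8 transglutaminases, with a median of 0.08, Tgm2 was higher, and so was Tgm5 (7.65, 5.78 and 8.24), which reached the floor among the compared arrays with retinoic acid alone.

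Among secreted signals of the immune system and hormones, single genes differed, in both directions. Tnfsf13b, the cytokine BAFF, which keeps B cells alive, was at 7.90 in serum, 5.83 without serum and 9.65 with retinoic acid, a difference of 3.82. Il33, a cytokine released by damaged barrier cells, was at 9.05, 7.80 and 10.04. Each was 1 of only 2 members of its list at the floor, of 16 TNF ligands and 32 interleukins. Among the compared arrays, Tnfsf13b reached the floor with retinoic acid alone. Of 8 chemokine genes at the floor, Ccl6 was higher, at 6.38, 7.09 and 8.90, and 3 were lower: Ccl11 (8.16, 8.88 and 6.99), Cxcl13 (9.25, 9.39 and 8.33) and Ccl9 (7.31, 8.06 and 6.99). Over all genes at the floor, 1.05% were higher and 0.613% lower. Ccl6, Ccl11 and Ccl9 were under the floor on 1 of the compared arrays, so they had to differ to be counted. Sst, the hormone somatostatin, was at 7.59, 7.31 and 10.53, and Adcyap1, the neuropeptide PACAP, at 7.09, 5.97 and 7.33. Of 38 measured neuropeptide and hormone genes, 6 reached the floor, and these 2 were at least 2-fold higher, beside 1.05% of all genes. Adcyap1 reached the floor with retinoic acid alone, so it had to differ to be counted. Iigp1, an interferon-induced GTPase, was higher by 2.18 (7.29, 6.42 and 8.60), whereas 0 of 16 guanylate-binding and interferon-induced genes at the floor passed the limit. Rsad2, an interferon-induced antiviral gene outside that list, was higher by 1.41.

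Another group held genes best known from neurons. Among contactins and leucine-rich adhesion genes, 13 of 32 reached the floor, with 4 higher and 0 lower: Cntn1 by 2.42 (6.39, 5.86 and 8.28), Lrrc7 by 2.32, Slitrk1 by 1.54 and Flrt1 by 1.48. All but Flrt1 reached the floor through the retinoic acid array alone, so they had to differ to be counted. The median over all 32 was 0, and 1.05% of all genes at the floor were higher. Lrrn3 (-0.98) and Lrrtm1 (-0.90) differed downward by less than 2-fold. In a list of glutamate and GABA receptor subunits, put together after its values were seen, 8 of 40 reached the floor, and 3 were higher, with a median of 0 over the 40. Grik4 was at 8.31, 7.38 and 9.48, Gabra3 at 8.45, 7.38 and 9.37, and Gria4 at 8.70, 7.998 and 9.12. The peptide receptors Npffr2 (4.54, 5.06 and 7.88) and Npy1r (6.79, 5.91 and 7.93) and the calcium sensors Hpca (6.76, 6.53 and 8.38) and Vsnl1 (9.22, 7.80 and 8.91) were also higher. Neuron and glia markers differed less: of 18 measured, 15 reached the floor, Stmn2, a microtubule regulator of growing axons, was higher by 1.33, and the median was 0.03. Snap25, a synaptic vesicle fusion gene, differed by -0.73.

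Further increases were in enzymes, channels and transporters. Cyp7b1, an oxysterol hydroxylase, was at 8.74, 6.92 and 9.01, Kcnk2, a potassium leak channel, at 7.25, 6.996 and 9.07, and Slc24a3, a sodium and calcium exchanger, at 7.94, 7.29 and 9.27. In these large families few genes passed: of 167 solute carriers at the floor 1 was higher and 1 lower, no more than the 1.05% and 0.613% of all genes, and of 20 potassium channels 1 and 1. Csn3, a milk casein gene, was at 6.82, 5.54 and 8.16. Pcp4, a calmodulin regulator, was at 9.60, 8.08 and 9.95, and Cpm, a membrane carboxypeptidase, at 8.95, 7.92 and 9.61, so that in both the serum value lay nearer to the retinoic acid value. Htr2b, a serotonin receptor, was at 5.75, 5.72 and 7.47, Arhgap20 at 7.57, 7.39 and 9.12, and the protocadherin Pcdh11x at 7.70, 7.53 and 9.17. In these the serum value lay nearer to the serum-free value. Lrfn5, Tmem62, Rit2 and Mpp6 were higher by 1.55 to 1.78.

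Counts by transcription factor family stand beside 1.05% higher and 0.613% lower over all genes at the floor. Past the limit were 0 of 21 forkhead, 0 of 10 SOX, 0 of 12 nuclear receptor and 0 of 2 PAX genes at the floor. Higher were 1 of 16 KLF and SP genes (Klf9), 1 of 4 T-box genes (Tbx18) and 1 of 3 LIM homeobox genes (Lhx1). Lhx1 reached the floor with retinoic acid alone, so it had to differ to be counted. In families of this size, a count of 0 is no sign of a share under that of all genes. GATA and AP-2 genes had more. Of the 6 GATA genes, 4 reached the floor and 3 were higher: Gata5 by 1.43 (8.30, 7.38 and 8.81), Gata2 by 1.14 (10.16, 9.88 and 11.02) and Gata6 by 1.07 (10.03, 9.56 and 10.63). The fourth, Gata3, a regulator of the ureteric bud, differed by -0.48. Both AP-2 genes at the floor were lower, Tfap2b at -1.70 (8.51, 8.25 and 6.56) and Tfap2a at -1.02 (8.73, 8.89 and 7.87). Tfap2b was under the floor with retinoic acid, so it had to differ to be counted. The homeobox genes Meox1 and Meox2, which belong to a single family, parted: Meox1 was at 8.69, 8.19 and 10.00, and Meox2 at 9.84, 10.13 and 8.61. Klf9, a hormone-responsive repressor, was higher by 1.31, and Hic1, a repressor of mesenchymal cells, by 1.29.

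In the ureteric bud lists, genes of the tip at the floor were above 0 in 10 cases and below 0 in 6. Of all 10111 genes at the floor, 2984 were above 0 and 3549 below. Ret, the receptor that drives branching, was at 9.58 in serum, 8.42 without serum and 9.92 with retinoic acid, or 1.499. Its coreceptor Gfra1 differed by 0.89 (11.10, 10.36 and 11.25) and Sox9 by 0.77. The RET target Etv4 differed by 0.51 and Spry1 by 0.47, while Etv5 and Dusp6 each differed by -0.03. Gdnf, the ligand made by the mesenchyme, differed by -0.15. Of 18 measured tip genes, 16 reached the floor, 3 were at least 2-fold higher (Adamts18, Ret and Lhx1) and 1 lower, with a median of 0.32. Over all genes at the floor, 1.05% were higher and 0.613% lower. The lower member was Met, the receptor of hepatocyte growth factor, at 8.17, 7.98 and 6.96. Among the compared arrays, Adamts18 and Lhx1 reached the floor with retinoic acid alone and Met through the serum-free array alone. These 3 had to differ to be counted. In the GDNF and RET list, 6 of 15 genes at the floor were above 0 and 8 below. Lower by less than 2-fold were Gfra3 at -0.86, Gfra2 at -0.80, Spry4 at -0.57 and Spry2 at -0.55.

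In the trunk and collecting duct list, 13 of 24 reached the floor, with 3 higher and 1 lower and a median of 0.00. Over all genes at the floor, 1.05% were higher and 0.613% lower. Calb1, the calcium buffer calbindin of the bud, was at 11.67, 9.73 and 11.91, or 2.18. Krt19, an epithelial keratin, was higher by 1.40 (7.25, 6.50 and 7.90). Among the compared arrays it reached the floor with retinoic acid alone, so it had to differ to be counted. Cdh16, the kidney-specific cadherin, was lower, at -1.10 (9.26, 9.33 and 8.22), and Tfcp2l1, a regulator of the collecting duct, at -0.77. Gata2 was the remaining higher member.

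Nephron progenitor genes differed among themselves. Cited1, which marks progenitors not yet induced, was at 9.82 in serum, 10.44 without serum and 8.30 with retinoic acid, or -2.13. Osr1, an early regulator of the kidney field, differed by -0.97 (10.82, 11.16 and 10.19) and Six2, which keeps progenitors undifferentiated, by -0.86 (11.03, 11.26 and 10.39). Pax8, a factor of both bud and early nephron, differed by 0.70 (10.62, 9.45 and 10.15). Eya1 differed by -0.50, Sall1 at -0.17 and Pax2 by 0.00, and Wt1 was above 0 at 0.51. Of 22 at the floor, 1 was at least 2-fold higher (Meox1) and 2 lower (Cited1 and Meox2), beside 1.05% and 0.613% of all genes. The median over 24 measured was -0.03.

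Genes of the pretubular aggregate, the first epithelium formed by induced progenitors, were counted as 4 higher and 0 lower of 17 at the floor, beside 1.05% and 0.613% of all genes. Wnt4, the signal that converts mesenchyme to epithelium, was at 8.92 in serum, 7.49 without serum and 8.92 with retinoic acid, or 1.42. Lhx1, a regulator of early nephrons and bud, was at 8.71, 6.79 and 8.07, Papss2, which makes the sulfate donor, at 8.73, 6.84 and 8.14, and the Notch ligand Dll1 at 7.43, 6.42 and 7.43. These 3 reached the floor among the compared arrays with retinoic acid alone, so they had to differ to be counted. The median over 22 measured was 0.00. Ccn1 and Sfrp2 of the same list differed by -0.66 and -0.62.

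In stroma and muscle, separate genes went each way. Tbx18, a marker of ureter mesenchyme and stroma, was at 9.43, 8.75 and 9.97, or 1.22, while Lum, the collagen-binding proteoglycan lumican, was at 8.42, 8.57 and 6.98, or -1.59. Foxd1, the defining factor of renal stroma, differed by 0.08. Of 23 stromal genes at the floor 2 were higher (Ecm1 and Tbx18) and 1 lower (Lum), beside 1.05% and 0.613% of all genes. Lum was under the floor with retinoic acid, so it had to differ to be counted. Acta2, smooth muscle actin, was at 12.42, 11.11 and 9.72, and Tagln, a further contractile gene, at 9.76, 7.84 and 6.52. Of 12 smooth muscle and ureter genes at the floor, these were the 2 lower, beside 0.613% of all genes. Higher were 2, Tbx18 and the carbonic anhydrase Car3 (9.83, 8.95 and 9.97), beside 1.05%. Tagln was under the floor with retinoic acid, so it had to differ to be counted. Of the 12, 7 were above 0 and 5 below, and the median over 18 measured was -0.02. The contractile genes Mylk, Des and Smtn differed by -0.05, -0.05 and 0.01, and Tshz3, a factor of ureter mesenchyme, by 0.95. Actg2 and Cnn1 differed by -1.40 and -1.02 but were under the floor on the compared arrays. Gja5, a connexin of renin cells and arteries, was at 8.87, 9.86 and 7.97, or -1.89.

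**Figure D4:**
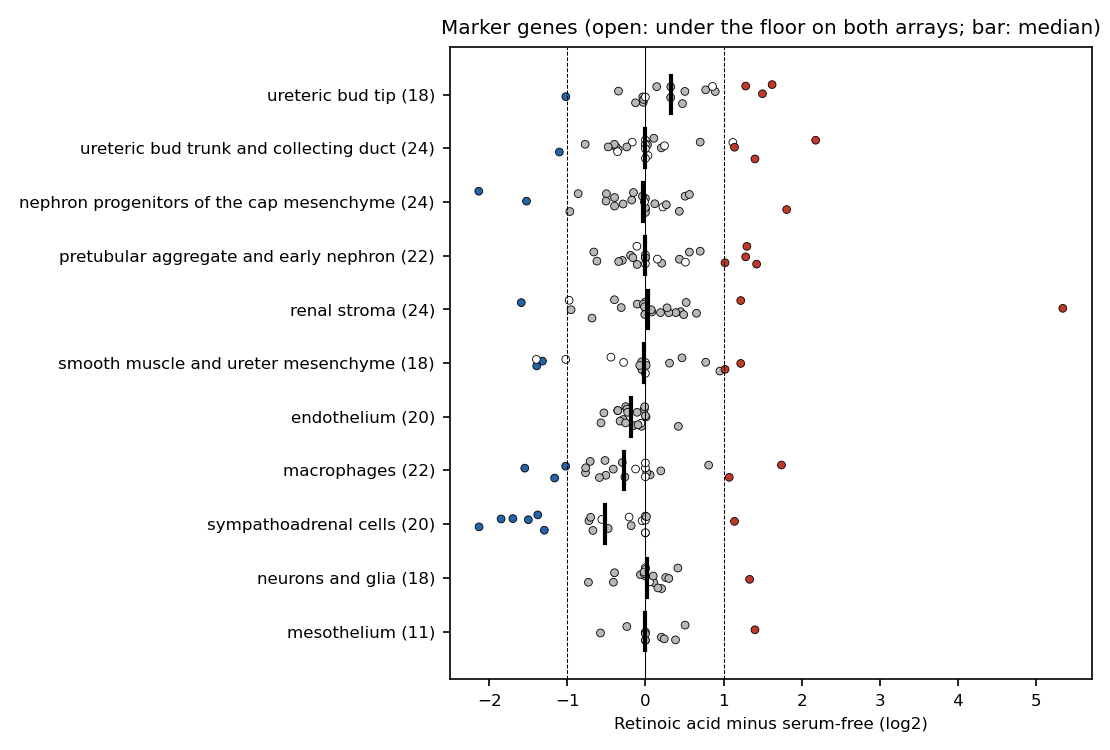
Difference of each measured marker gene, retinoic acid minus serum-free on the log2 scale, by cell type list, with the number measured in brackets; each point is 1 gene, open points are under the floor on both arrays, dashed lines mark 2-fold and bars the medians. The median is 0.32 for ureteric bud tip and -0.52 for sympathoadrenal cells, and Ecm1 lies alone at 5.34 in renal stroma.

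Markers of other cells that a kidney explant may carry along were read the same way. Sympathoadrenal genes are those of cells that make noradrenaline in the adrenal medulla and sympathetic ganglia. They gave the most decreases of any cell list: 6 of 13 at the floor were lower and 1, Gata2, was higher. Over all genes at the floor, 0.613% were lower and 1.05% higher. Dbh, which makes noradrenaline, was at 8.21 in serum, 9.30 without serum and 7.17 with retinoic acid. Chga, a protein of secretory granules, was at 8.13, 9.45 and 7.61, Th, the enzyme of the first step to dopamine, at 6.69, 7.595 and 6.10, the factor Hand1 at 7.23, 7.90 and 6.52, and the vesicle transporter Slc18a1 at 6.77, 7.44 and 6.14. The remaining lower member was Tfap2b. Among the compared arrays, Th, Hand1, Slc18a1 and Tfap2b reached the floor through the serum-free array alone, so they had to differ to be counted. The summed intensity of the 20 measured members was 5571 in serum, 6521 without serum and 5281 with retinoic acid. Gata2 and Gata3, which the ureteric bud also expresses, carried much of it: without them, a choice made after seeing the data, the sums were 2850, 4140 and 2172. The part of sympathoadrenal cell number in these decreases was not tested.

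Macrophage markers at the floor were below 0 in 12 of 18 cases, beside 3549 of all 10111 genes. At least 2-fold lower were 3 and higher 2, beside 0.613% and 1.05% of all genes. The summed intensity of the 22 measured markers was 4950 in serum, 15236 without serum and 10426 with retinoic acid. Gpnmb and Cd68 carried much of the fall from the serum-free to the retinoic acid array. Gpnmb, a glycoprotein of lysosome-rich macrophages, was at 9.15, 11.32 and 9.77, Cd68, a lysosomal marker, at 8.77, 10.70 and 9.54, and Mrc1, the mannose receptor, at 6.32, 8.27 and 7.25. Timd4, a receptor for dying cells on resident macrophages, ran the other way, at 6.21, 6.88 and 8.62, and so did Pf4, at 6.24, 6.28 and 7.36. Both reached the floor with retinoic acid alone, so they had to differ to be counted. Also above 0, of 6 markers in all, were Lyve1 (0.81), Csf1r (0.20), C1qa (0.06) and Fcgr3 (0.02). Lyve1 too reached the floor with retinoic acid alone. Other decreases in genes known from myeloid cells were Ms4a6d at -1.50 (7.59, 9.59 and 8.09), Lilr4b at -1.61 (7.28, 8.39 and 6.78), C3ar1 at -1.07 and Cd36 at -1.29. All 5 Ms4a genes at the floor were below 0. The part of macrophage number in these decreases was not tested.

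Endothelial markers were below 0 in 16 of 19 genes at the floor, beside 3549 of all 10111 genes. Of the 19, 0 passed the limit, and the median was -0.19. The largest decreases among them were Sox18 at -0.57 and Dll4 at -0.53. Erythroid genes had 0 of 5 at the floor past the limit. Skeletal muscle had 2 members of 15 at the floor, cartilage and bone 3 of 11, and mast cells and lymphocytes 1 of 11, with 0 past the limit in each.

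The remaining decreases included surface and matrix genes. Genes of caveolae, flask-shaped pits of the cell membrane, were lower in 3 of 4 cases at the floor, in a list put together after its values were seen. Cav1, which forms the coat, was at 9.78, 10.47 and 8.996, Cavin3 at 9.29, 9.47 and 8.40, and Cav2 at 7.47, 7.91 and 6.88, while Cavin1 differed by -0.35. Cav2 was under the floor with retinoic acid, so it had to differ to be counted. Of all genes at the floor, 0.613% were lower. Cav2, Cav1 and Met are neighbours in the genome. The proteoglycan Bgn was lower, at -1.01, the matricellular genes Postn at -1.20 (9.74, 10.29 and 9.09) and Tnc at -1.10 (10.25, 9.62 and 8.53), and Fbln2 at -1.06. Vcam1, a leukocyte adhesion receptor, was at 7.88, 7.88 and 6.21, and Cldn1, a tight junction protein, at 7.98, 8.09 and 6.52. The water channel Aqp1 was lower, at -1.30, Cyp1b1, a P450 enzyme of steroids and retinoids, at -1.29, and the Eph receptor Epha3 at -1.30. Emp1, a membrane protein of epithelia, was at 10.44, 10.57 and 8.91, Vgll3, a cofactor of TEAD factors, at 8.71, 8.54 and 6.91, and Lix1 at 8.49, 9.27 and 7.69. Actn3, an alpha-actinin of fast muscle, was at 8.65, 9.63 and 8.12, and Tacr3, a tachykinin receptor, at 7.14, 7.49 and 5.69. Kcnk9, Cacng3, Lgi1 and Ptchd1 were lower by 1.30 to 1.61 in size.

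**Figure D5:**
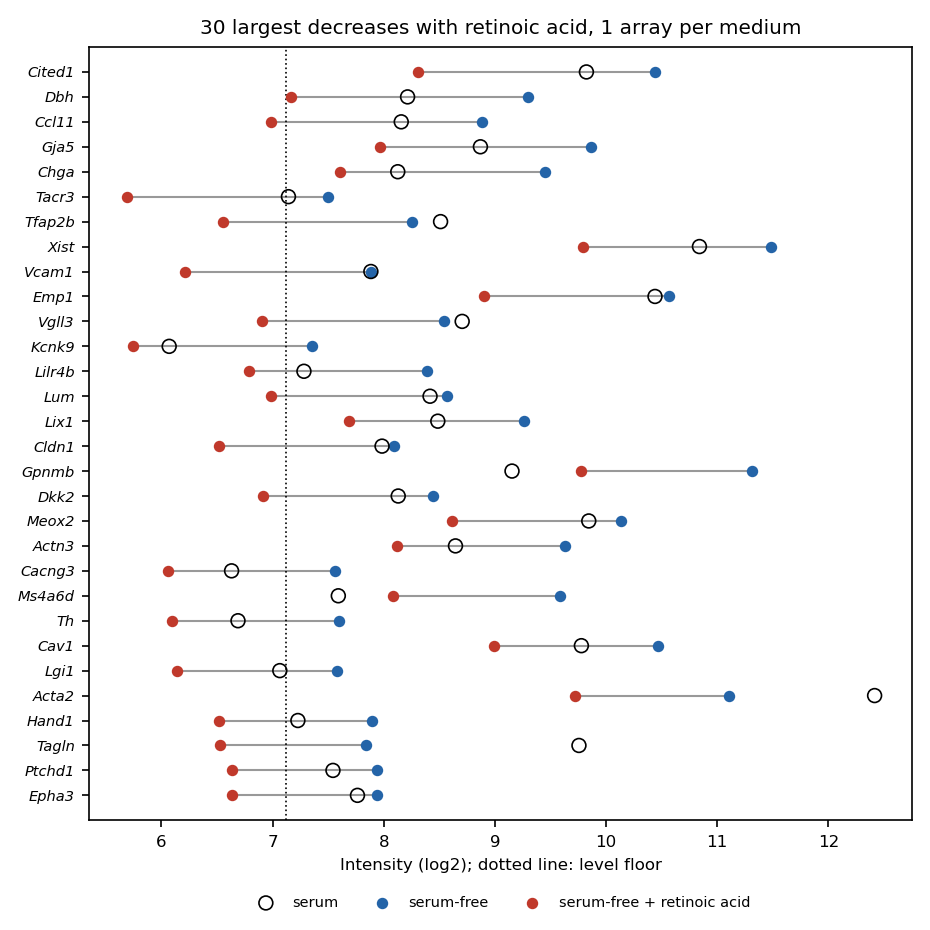
Log2 levels of the genes with the largest decreases on the serum (open ring), serum-free and retinoic acid arrays, 1 row a gene and 1 point an array, with the level floor of 7.12 drawn as a line. Cited1 and Dbh stand at 10.44 and 9.30 on the serum-free array and at 8.30 and 7.17 with retinoic acid.

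Among signalling lists, that of WNT targets and inhibitors also holds the R-spondins (Rspo), which strengthen WNT signals. Of its 17 genes at the floor, 1 was lower, the inhibitor Dkk2 at 8.13, 8.44 and 6.92, beside 0.613% of all genes. Dkk2 was under the floor with retinoic acid, so it had to differ to be counted. Another 6 were lower by at least 1.5-fold, as were 1.94% of all genes at the floor: Dkk1 (-0.95), Rspo1 (-0.86), Rspo3 (-0.78), Sostdc1 (-0.64), Sfrp2 (-0.62) and Frzb (-0.62). Axin2 and Lef1, targets of beta-catenin, differed by -0.10 and -0.19. Of the Notch pathway, Dll1 was higher, and the target Nrarp was at 8.51, 8.71 and 7.53, or -1.18. Heyl (-0.86), Lfng (-0.69) and Hey2 (-0.68) were lower too, and Notch2 was higher by 0.65. In the BMP and TGF-beta list, 2 of 19 at the floor were higher, beside 1.05% of all genes. They were Tgfb3 by 1.40 (10.22, 9.54 and 10.94) and Gdf10 by 1.01. Of 10 FGF ligands at the floor, 1 was higher and 1 lower, beside 1.05% and 0.613% of all genes. Fgf15 was higher by 1.53 from a value under the floor, and Fgf12 lower, at -1.10. In the hedgehog list the 9 genes at the floor ranged from -0.14 to 0.40, with 0 past the limit.

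Programmes of cell division and housekeeping differed little, those of stress and lipids somewhat more. Mitosis genes, 19 of 19 at the floor, ranged from -0.16 to 0.11, and DNA replication genes from -0.21 to 0.13. Oxidative phosphorylation genes ranged from -0.26 to 0.03 and housekeeping genes from -0.43 to 0.00. Of 19 cholesterol synthesis genes, 0 passed the limit and the median was 0.16. For comparison, 94.4% of all genes at the floor lay within 0.5 of 0. Fatty acid synthesis genes ranged from -0.75 in Fads3 to 0.74 in Scd1, with 0 of 12 past the limit. Of 12 immediate early genes at the floor, 10 were below 0, beside 3549 of all 10111 genes. At least 1.5-fold lower were 3 of the 12 (Nr4a1 at -0.83, Dusp1 at -0.63, Atf3 at -0.60), beside 1.94% of all genes, with 0 past 2-fold. Of 14 p53 targets at the floor, 1 was higher, Perp, a membrane protein of cell junctions, at 6.27, 6.68 and 7.76. Perp was under the floor without serum, so it had to differ to be counted, and 1.05% of all genes were higher.

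Transcripts of the sex chromosomes differed between the arrays as well. Xist, the RNA that coats a silenced X chromosome in females, stood at 10.84 in serum, 11.48 without serum and 9.79 with retinoic acid, or -1.70. The Y-linked genes were higher, Kdm5d by 1.19 (7.74, 7.21 and 8.40), Eif2s3y by 1.18 (8.38, 7.46 and 8.64) and Uty by 1.098 (7.93, 7.29 and 8.38). All 4 reached the floor on each array. With 1 array a medium, the sex of the embryos and the medium cannot be told apart for other genes that differ by sex, and without these 4 genes the counts were 103 higher and 61 lower.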

How the data were processed

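Total RNA of the explants, 250 ng an array, was labelled with biotin and hybridised to Affymetrix Mouse Gene 1.0 ST arrays, per the labels' protocols. The values deposited by the authors are linear intensities of 35556 probe sets, made with Affymetrix Expression Console 1.1 and RMA, per the submitters' processing notes. RMA summarises probes by median polish over all arrays, which returns exactly equal values for many genes, so a difference of 0 is no measure of equal expression. Log2 of the deposited intensities was taken with no pseudocount or further scaling. The number of arrays limits the precision, and so does the level, under the floor most of all.

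Of the probe sets, 21789 had exactly 1 gene symbol, and of several for a gene, that of highest mean level was used, giving 19938 genes. Genes were called by size, at least 2-fold with the higher value at or above the floor. Members, rules and 87 lists were chosen with earlier results of these data known. A further 10 lists, beyond the 87, and the Cyp26a1 sequence were chosen after values were seen. Named were the 40 largest increases and 30 largest decreases without gene models, called members and up to 6 members with the largest difference of lists described, and the retinoid, HOX, identity and sex-linked lists, though not every gene this rule allows; further genes, such as those nearest the threshold and members singled out of a list, were named after their values were seen. List members were matched by symbol. Coordinates are those of RefSeq promoters on GRCm38.p6, and the sources used here name no build for the array. The calling code was run on simulated data with large differences, well above the floor, and little noise, which checks the code and not the precision of these arrays. Alternatives were other floors and sizes, an added intensity of 32, cyclic loess (limma 3.58.1, R 4.3.3), median centring, the mean of probe sets, and leaving out sex-linked genes or gene models. Other computation used Python 3.11.15, pandas 2.3.3 and numpy 2.4.6.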

Additional observations from a re-analysis of the deposited data

Results flagged for a closer look

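Probe sets outside the gene-level comparison also differed between the retinoic acid and serum-free arrays, and they are given because no result above uses them. Of 1621 probe sets with several gene symbols, 802 reached the floor and 1 was at least 2-fold higher with retinoic acid, with 0 lower. It is shared by Gbp2 and Gbp2b, guanylate-binding protein genes, and was at 5.41 in serum, 4.90 without serum and 7.84 with retinoic acid, a difference of 2.94. The probe set of Gbp2b alone was at 5.02 on each array, under the floor. Of 12146 probe sets with no name in the table used here, 3007 reached the floor, 13 were at least 2-fold higher and 10 lower, with differences from -1.59 to 2.27.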

How the results depend on the processing

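The counts of 106 higher and 62 lower genes moved most with the floor and the size limit. With the floor at the upper quartile they were 55 and 26, with a size of 1.5-fold they were 244 and 196, and with both values required at the floor, an alternative chosen after seeing the data, they were 62 and 34. Adding 32 to the intensities gave 88 and 42, no floor 132 and 74, cyclic loess 106 and 62, median centring 108 and 59, and the mean of probe sets 105 and 61. Of 168 called genes, the difference of 32 moved beyond 0.28 with the added intensity, 1 with the mean of probe sets and 0 with cyclic loess, and none of these changed sign. Of 74 list medians, 7 moved when taken over members at the floor alone, among them contactins and neural adhesion genes to 0.68 and glutamate and GABA receptors to 0.28, each from 0, and retinoid binding to -0.77, also from 0. Medians above are over all measured members, since members enter the floor through the array where they are high. No paired analysis was possible because there is 1 array per medium and the labels carry no replicate numbers. No array could be left out, since each group is a single array. Signal over background limits the size of differences from values under the floor.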

Other observations

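Under the floor on both arrays, and so outside the counts above, 26 genes differed upward by 2-fold or more and 12 downward. Mc2r, the receptor of the adrenal hormone ACTH, was at 6.38 in serum, 4.65 without serum and 7.07 with retinoic acid, a difference of 2.43. Efcab3 differed by 2.53 and Cntnap5b, a neural adhesion gene, by 2.13. Fabp4, a fatty acid-binding protein gene, was at 7.01, 5.87 and 7.01, and Elf5, a factor of the collecting duct, at 7.22, 5.82 and 6.94. These genes were chosen after their values were seen.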
